A study of Mus musculus with 9 samples.

Results

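Fibrillar collagen is secreted as procollagen, trimmed at both ends and then crosslinked, and 10 genes that encode the enzymes of these steps were examined in RNA from single capillaries and their surrounding cells at the ossification front (OF) of the mouse femur. They are the procollagen C-proteinase enhancers Pcolce and Pcolce2, the C-proteinase gene Bmp1, the N-proteinase genes Adamts2 and Adamts14, and the lysyl oxidase genes Lox, Loxl1, Loxl2, Loxl3 and Loxl4. They were grouped by role, with earlier results of these data known, and all 10 were found by their Ensembl identifiers among the 39179 genes listed in each library. The groups were juvenile mice of 4 weeks (n = 5 libraries) and adult mice of 12 weeks (n = 4). All animals carried the same reporter transgene, Tg(TIE2GFP)287Sato/J, in which the Tie2 promoter drives GFP in endothelial cells. The labels give C57BL/6 as the mouse origin, and no mutation or treatment distinguished the ages. The GFP marked which vessels were cut by laser microdissection, so each library held endothelial cells together with whatever bone and marrow cells lay against them. According to the methods the pieces of a sample were pooled, and males and females were analysed together.

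Procollagen carries a propeptide at each end of the triple helix that keeps it soluble. ADAMTS-type N-proteinases remove the amino-terminal propeptide, and BMP1, a metalloproteinase of the tolloid family, removes the carboxy-terminal one, which lets the molecules assemble into fibrils. PCOLCE binds the C-propeptide of fibrillar procollagens and raises the rate at which BMP1 cleaves it without being a proteinase itself. Lysyl oxidases are copper-dependent enzymes that oxidise lysine and hydroxylysine side chains of collagen and elastin, and the aldehydes formed condense into the crosslinks that give bone collagen its strength. BMP1 also cleaves the propeptide of LOX, so the enzymes of cleavage and of crosslinking are linked in activity as well as in sequence of action.

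Library totals ranged from 4856833 to 8077362 counts, and 3 counts corresponded to between 0.347 and 0.638 CPM. CPM gives the counts of a gene relative to the size of its library, scaled here by the trimmed mean of M-values (TMM), and is the unit of all levels unless another scale is named. Juvenile libraries 4 and 5 stood apart from the other 7 by sex-linked genes. Ddx3y on the Y chromosome had 524 and 439 counts in them against at most 1 elsewhere. Xist on the X chromosome had 11 and 1 counts in them against 2965 to 6598 elsewhere. By these genes both were male and the other 7, with every adult library among them, female. Sex was thus not balanced between the ages, and results were also computed without juvenile libraries 4 and 5. Adult library 2 stood apart by its chondrocyte markers, whose summed level was 514 CPM against 0 to 83.8 CPM in the other adult libraries, and by its neutrophil markers, at 91.2 CPM against 3473 to 4301 CPM. The endothelial markers were present in every library and did not separate the ages, with a sum of 493 to 801 CPM in juvenile and 549.9 to 676 CPM in adult libraries and none of 7 genes past the test. The 8 osteoblast markers summed to between 21299.8 and 33933 CPM in juvenile and between 8191 and 13276 CPM in adult libraries, without overlap, and 4 of them were higher in juvenile mice. All 7 neutrophil and all 7 erythroid markers were higher in adult mice. In such mixed tissue, fewer cells of a type and less RNA per cell cannot be told apart.

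Of the 10 genes, 4 were expressed at a higher level in juvenile than in adult OF, namely Pcolce, Bmp1, Adamts2 and Lox, and none was higher in adult OF. Each step of the pathway therefore had 1 member past the test in the juvenile direction: 1 of 2 enhancers, the C-proteinase, 1 of 2 N-proteinases and 1 of 5 lysyl oxidases. Of all 13418 tested genes, 3.88% were called by the same edgeR quasi-likelihood test with Benjamini-Hochberg adjustment at 0.05, 1.99% toward juvenile and 1.89% toward adult mice. In 6 of the 10 genes every juvenile library stood above every adult library, and none had the reverse order, while in the other 4 genes the ages overlapped. Over all tested genes 9.15% had no overlap, 5.07% with the juvenile and 4.08% with the adult libraries above. The median log2 fold change, juvenile over adult, was 1.17 over the 10 genes and -0.01 over all tested genes. The call of 4 genes was the same with each of the 9 libraries left out in turn. Without juvenile libraries 4 and 5 the calls of Pcolce, Bmp1 and Lox held, and that of Adamts2 did not (log2 fold change 1.01, SE 0.20, adjusted p = 0.0695 by edgeR), when 0.526% of 13876 tested genes were called, 0.303% toward juvenile and 0.223% toward adult mice.

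**Figure D1:**
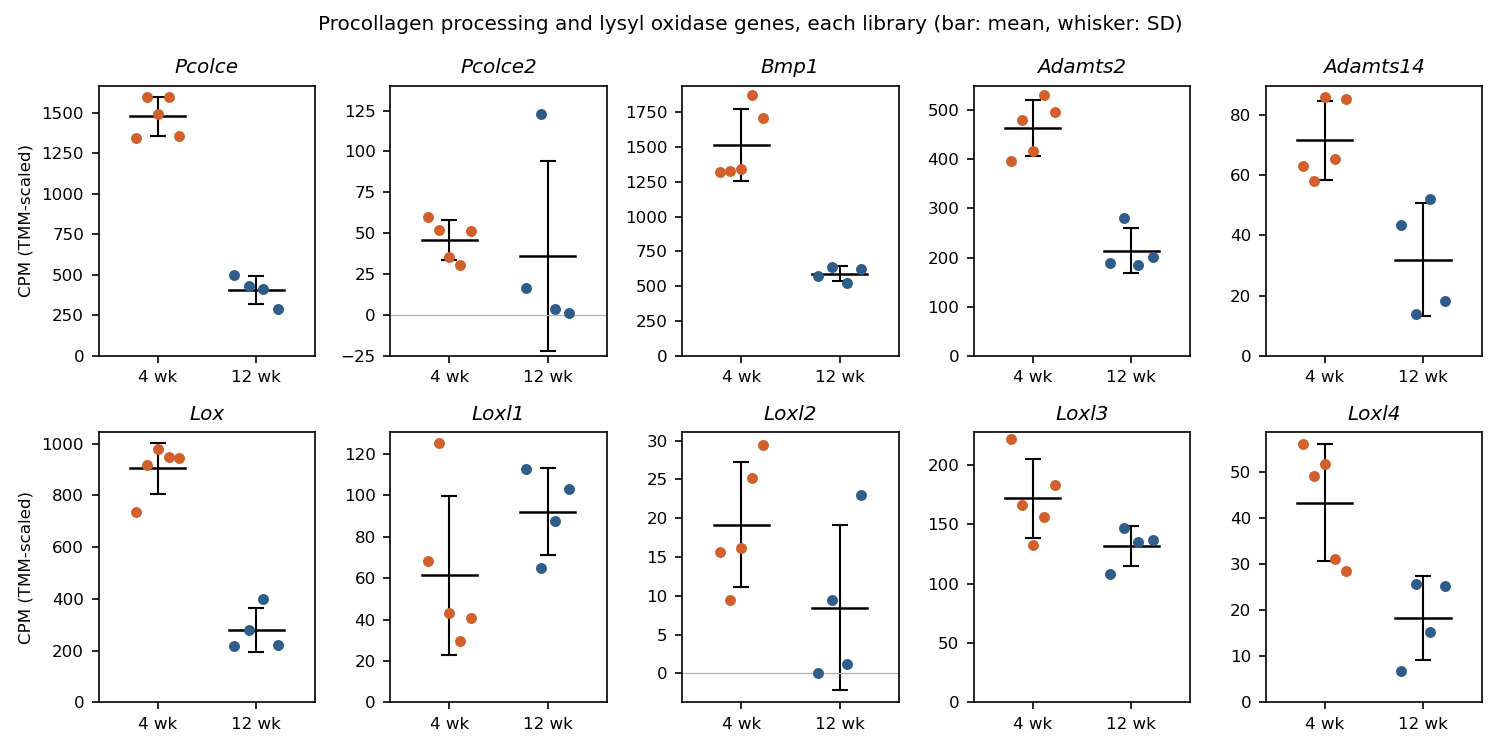
TMM-scaled CPM of the 10 genes, 1 panel per gene, with age on the horizontal axis. Each point is 1 library (5 juvenile, 4 adult), the line is the mean and the bar is ± 1 SD. Juvenile and adult points separate fully for Pcolce, Bmp1, Adamts2, Adamts14, Lox and Loxl4, and a single adult library lies far above the other 3 for Pcolce2.

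Pcolce (ENSMUSG00000029718, chromosome 5, 137605103 to 137613784, minus strand, GRCm38) encodes the main enhancer of procollagen C-proteinase activity. In juvenile libraries 1 to 5 it stood at 1344, 1596, 1488, 1593 and 1357 CPM, and in adult libraries 1 to 4 at 497, 428, 415 and 287 CPM. The lowest juvenile library was thus far above the highest adult library, and the juvenile libraries varied little among themselves (coefficient of variation 8.29%, against 21.5% in adults). The means were 1476 ± 122 (SD, n = 5) and 407 ± 87.6 CPM (SD, n = 4), a 3.63-fold difference (log2 fold change 1.86, SE 0.18, edgeR adjusted p = 0.000206). With 1 library left out the log2 fold change lay between 1.70 and 1.96. A short stretch of 112 bases of its exons is shared with Fbxo24 on the same strand, and Fbxo24 had between 0 and 4 counts.

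Pcolce2 (ENSMUSG00000015354, chromosome 9, 95637601 to 95698096, plus strand) encodes the second enhancer, a protein of the same domain plan that binds procollagen C-propeptides. Its juvenile libraries held 60.2, 51.9, 35.3, 30.8 and 51.5 CPM, and its adult libraries 16.6, 123, 3.84 and 1.002 CPM. Adult library 2 was higher than any juvenile library, while the other 3 adult libraries were lower than all of them. In counts the adult libraries held 144, 735, 31 and 8. No difference between the ages was detected over all 9 libraries (log2 fold change 0.36, 95% interval -1.42 to 2.13, edgeR adjusted p = 0.908). Without adult library 2 the log2 fold change was 2.65 (SE 0.72, adjusted p = 0.0575). That library was also the one with the high chondrocyte marker sum. It had the highest Col2a1, the cartilage collagen, at 3117 CPM against 528 to 867 CPM in the other adult libraries. Elsewhere the 2 did not run together: adult library 4 had a marker sum of 83.8 CPM with the lowest Pcolce2, at 1.002 CPM. Juvenile library 4 had a sum of 8.45 CPM with 30.8 CPM of Pcolce2. The part of cartilage cells in the Pcolce2 level of adult library 2 was not tested.

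**Figure D2:**
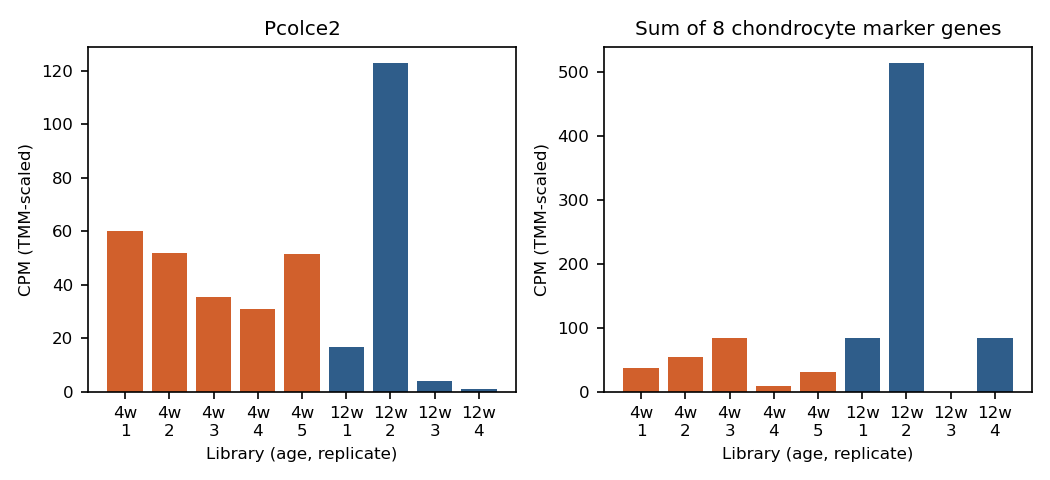
TMM-scaled CPM of Pcolce2 (left) and summed CPM of 8 chondrocyte markers (right), 1 bar per library, with juvenile libraries in orange and adult libraries in blue. Adult library 2 has the tallest bar in both panels, at 123 CPM of Pcolce2 and 514 CPM of chondrocyte markers, and the other 3 adult libraries are below every juvenile library for Pcolce2.

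Bmp1 (ENSMUSG00000022098, chromosome 14, 70474558 to 70520234, minus strand) encodes the C-proteinase whose activity the enhancers raise. Its level was 1321, 1325, 1345, 1871 and 1712 CPM in the juvenile libraries and 576, 641, 524 and 623 CPM in the adult libraries. The ages did not overlap, and the higher juvenile values belonged to libraries 4 and 5, which carried the Y-linked counts. The mean was 1515 ± 259 CPM (SD, n = 5) in juvenile and 591 ± 52.8 CPM (SD, n = 4) in adult mice, a 2.56-fold difference (log2 fold change 1.36, SE 0.16, edgeR adjusted p = 0.00106). Without libraries 4 and 5 the log2 fold change was 1.17 (adjusted p = 0.0139), so the call did not rest on them. Other tolloid proteinases that cut at the same site were nearly absent. Tll2 had 0 counts in all 9 libraries, and Tll1 had 1 count in juvenile library 2, 11 in juvenile library 5 and 0 in the other 7. The meprin genes Mep1a and Mep1b, which encode proteinases also able to release procollagen propeptides, had 0 counts throughout, which at this depth allows a level of up to 0.638 CPM in the shallowest library.

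Adamts2 (ENSMUSG00000036545, chromosome 11, 50602084 to 50807573, plus strand) encodes a principal N-proteinase of type I procollagen. Its juvenile libraries stood at 396, 479, 416, 531 and 495 CPM and its adult libraries at 188, 281, 184 and 201 CPM. Each juvenile library exceeded each adult one, with adult library 2 the closest. The difference was 2.17-fold between means of 464 ± 56.1 CPM (SD, n = 5) and 214 ± 45.5 CPM (SD, n = 4), with a log2 fold change of 1.12 (SE 0.18, edgeR adjusted p = 0.00535).

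Adamts14 (ENSMUSG00000059901, chromosome 10, 61197112 to 61273438, minus strand) encodes a close relative with the same N-proteinase activity. It was measured at 62.9, 58.2, 86.0, 65.3 and 85.2 CPM in juvenile and at 43.6, 14.0, 52.2 and 18.2 CPM in adult libraries. Its size of change resembled that of Adamts2, with a log2 fold change of 1.16, but the adult libraries fell into a higher and a lower pair and the standard error was 0.37 (edgeR adjusted p = 0.110, 95% interval 0.42 to 1.89). The ages did not overlap for this gene either, the narrowest gap being 58.2 against 52.2 CPM. DESeq2, which makes more calls on these counts (9.47% of 15726 genes, 4.57% toward juvenile and 4.9% toward adult mice), called it at an adjusted p of 0.0446. Adamts3, the remaining N-proteinase gene of the family and best known for cartilage collagen and for activation of VEGF-C, was measured at 18.3 ± 9.24 CPM (SD, n = 5) and 10.8 ± 10.7 CPM (SD, n = 4), with no detected difference (log2 fold change 0.76, SE 0.83, edgeR adjusted p = 0.730).

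The 2 enhancer genes and the 2 N-proteinase genes each form a pair in which 1 gene was called and 1 was not, and the bases upstream of their start sites are shown to set the pairs side by side. RefSeq promoter windows on GRCm38.p6 were matched for 5 of the 10 genes, these 4 and Loxl4, and each window holds the 250 bases before the start annotated by RefSeq. For Pcolce that start lies inside the longer GENCODE gene span given above, so its printed bases are upstream of the RefSeq start only. The part before the first exon annotated by GENCODE within the window is printed 5′ to 3′ on the strand of the gene, with every match to the GC box GGGCGG on either strand in capitals and overlapping matches run together. The regions are chr5:137611488-137611654 (minus) for Pcolce, chr9:95637378-95637600 (plus) for Pcolce2, chr11:50601835-50602083 (plus) for Adamts2 and chr10:61273439-61273669 (minus) for Adamts14.
Pcolce: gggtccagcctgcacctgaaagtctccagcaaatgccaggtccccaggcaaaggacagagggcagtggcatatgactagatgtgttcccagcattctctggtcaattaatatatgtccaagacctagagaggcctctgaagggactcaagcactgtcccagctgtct
Pcolce2: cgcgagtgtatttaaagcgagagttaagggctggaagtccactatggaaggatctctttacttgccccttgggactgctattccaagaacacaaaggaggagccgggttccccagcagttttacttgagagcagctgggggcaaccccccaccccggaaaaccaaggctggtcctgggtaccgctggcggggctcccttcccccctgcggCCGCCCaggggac
Adamts2: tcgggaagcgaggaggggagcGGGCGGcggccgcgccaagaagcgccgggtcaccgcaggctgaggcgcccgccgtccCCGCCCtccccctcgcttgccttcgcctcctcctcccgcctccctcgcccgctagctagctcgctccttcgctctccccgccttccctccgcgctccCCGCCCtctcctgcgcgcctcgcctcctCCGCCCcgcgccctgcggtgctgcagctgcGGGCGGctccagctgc
Adamts14: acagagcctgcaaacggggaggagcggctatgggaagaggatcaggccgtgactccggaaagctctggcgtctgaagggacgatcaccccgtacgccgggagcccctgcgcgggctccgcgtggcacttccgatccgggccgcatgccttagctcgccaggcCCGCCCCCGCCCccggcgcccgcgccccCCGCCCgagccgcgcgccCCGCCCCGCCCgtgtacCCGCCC
Of the motifs searched on both strands of the 250 bases, the TATA box TATAAA, the CCAAT box CCAAT and the RUNX core TGTGGT had no match in any of the 5 windows, while 12.3%, 33.8% and 14.0% of all 32536 RefSeq windows hold 1. The GC box, held by 33.0% of all windows, matched 5 times for Adamts2 and 6 times for Adamts14, the genes of the N-proteinase pair. It matched 3 times for Loxl4, once for Pcolce2, and once for Pcolce in the bases left out of the printed stretch. The share of G and C was 78.0% for Adamts2, 76.4% for Adamts14 and 76.0% for Loxl4, and 58.8% for Pcolce and 61.2% for Pcolce2, against a median of 52.4% over all windows. A match describes letters in the window and not a bound site.

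Lox (ENSMUSG00000024529, chromosome 18, 52516067 to 52529867, minus strand) encodes the founding lysyl oxidase, an enzyme required for normal collagen and elastin crosslinking. It was measured at 735, 916, 979, 949 and 945 CPM in the juvenile and at 219, 281, 401 and 222 CPM in the adult libraries. The ages were separated by a wide gap, and juvenile library 1 lay below the other 4, which sat within a narrow range. The means of 905 ± 97.7 CPM (SD, n = 5) and 281 ± 85.2 CPM (SD, n = 4) differed 3.22-fold (log2 fold change 1.69, SE 0.20, edgeR adjusted p = 0.00106). With 1 library left out the log2 fold change was between 1.57 and 1.89.

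Loxl1 (ENSMUSG00000032334, chromosome 9, 58287738 to 58313186, minus strand), known for its part in elastic fibre maintenance, was the only gene of the 10 with a fitted fold change below 0. Its juvenile libraries held 68.3, 125, 43.0, 29.7 and 40.7 CPM and its adult libraries 113, 64.8, 87.7 and 103 CPM. The ages overlapped because juvenile library 2 was above every adult library and juvenile library 1 above adult library 2. The log2 fold change of -0.58 (95% interval -1.31 to 0.15) was not past the test (edgeR adjusted p = 0.482). Without juvenile library 2 it was -1.02 (SE 0.30, adjusted p = 0.103).

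Loxl2 (ENSMUSG00000034205, chromosome 14, 69609068 to 69695834, plus strand), which acts on basement membrane collagen IV among other substrates had few counts. The juvenile libraries held 15.6, 9.51, 16.2, 25.2 and 29.5 CPM, and the adult libraries 0, 9.52, 1.24 and 23.1 CPM. In counts the adult values were 0, 57, 10 and 184, so the adult libraries were spread from no detection to the juvenile range. The interval of its log2 fold change, -0.83 to 3.19, leaves neither direction established (1.18, SE 1.03, edgeR adjusted p = 0.641).

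Loxl3 (ENSMUSG00000000693, chromosome 6, 83034173 to 83052562, plus strand) encodes a lysyl oxidase with scavenger receptor domains that is needed for normal palate and spine development. It was measured at 222, 167, 132, 157 and 183 CPM in juvenile and 108, 147, 135 and 137 CPM in adult mice. The ages overlapped, and the log2 fold change of 0.39 was not past the test (edgeR unadjusted p = 0.0603, adjusted p = 0.315). Its 95% interval, 0.02 to 0.75, is a normal approximation that is narrower than this test implies. Of its exon bases, 11.6% lie under exons of Htra2 on the opposite strand, which had 500 to 1465 counts, and the strand setting of the counting was not given in the sources used here.

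Loxl4 (ENSMUSG00000025185, chromosome 19, 42593982 to 42612813, minus strand), also of the scavenger receptor type, stood at 56.0, 49.1, 51.7, 31.0 and 28.4 CPM in juvenile and at 6.70, 25.7, 15.2 and 25.3 CPM in adult libraries. The lowest juvenile value was just above the highest adult value. The log2 fold change was 1.25 (SE 0.42, 95% interval 0.43 to 2.07, edgeR adjusted p = 0.124), and DESeq2 gave an adjusted p of 0.0402. Its juvenile libraries 4 and 5, with the Y-linked counts, were the lower of the 5.

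Levels of different genes were compared only after division by the length of the exon union in kilobases. Per kb, Pcolce was the most abundant of the 10 genes at both ages, with every library above every library of the next gene, at 386 ± 31.99 CPM per kb (SD, n = 5) in juvenile and 106 ± 22.9 CPM per kb (SD, n = 4) in adult mice. It ranked 96 among 13282 genes in juvenile and 486 in adult OF. Lox and Bmp1 followed, at 189 ± 20.4 and 171 ± 29.2 CPM per kb in juvenile libraries, where their ranges overlapped. In adult libraries they also overlapped, with Bmp1 at 66.6 ± 5.95 and Lox at 58.8 ± 17.8 CPM per kb, and both stood clear of the genes after them. Adamts2, at 49.6 ± 6.01 CPM per kb, came next in juvenile mice and overlapped Loxl3, at 37.4 ± 7.24. In adult mice Loxl3 (28.6 ± 3.63), Loxl1 (27.96 ± 6.36) and Adamts2 (22.9 ± 4.88) were neighbours whose ranges overlapped. The remaining genes were at 13.8 CPM per kb or less in juvenile and 7.80 or less in adult mice, apart from Loxl1 at 18.6 ± 11.7 in juvenile mice. Loxl2 was last at both ages, at 3.55 ± 1.48 and 1.56 ± 1.96 CPM per kb. The order rests on the length used. With the longest annotated transcript as length, Bmp1 stood above Lox without overlap at both ages, at 282 ± 48.2 against 191 ± 20.6 CPM per kb in juvenile and 110.1 ± 9.84 against 59.2 ± 17.98 in adult libraries. On that length Pcolce still led at both ages but overlapped Bmp1 in adult libraries (112 to 193 against 97.6 to 119.5 CPM per kb), juvenile Adamts2 no longer overlapped Loxl3, and adult Adamts2 ranked above Loxl1.

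The make-up of the lysyl oxidase family followed from these levels. Of the summed CPM per kb of the 5 genes, Lox made up 64.4%, 68.6%, 78.2%, 78.3% and 75.5% in the juvenile libraries and 43.6%, 49.7%, 58.4% and 39.4% in the adult libraries. Lox was thus the leading family member in all 9 libraries, with a mean share of 73.0% ± 6.22 (SD, n = 5) against 47.8% ± 8.22 (SD, n = 4) and no overlap. The shares of Loxl1 and Loxl3 were larger in every adult library than in any juvenile one. Loxl1 took 3.55% to 13.6% in juvenile and 16.6% to 32.5% in adult libraries, and Loxl3 11.0% to 20.2% and 20.5% to 27.0%. Loxl2 and Loxl4 together stayed small, with mean shares of 1.38% and 3.98% in juvenile and 1.32% and 3.57% in adult mice. These shares sum to the same whole in each library, so a larger share of 1 gene lowers the others, and they were given no test.

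**Figure D3:**
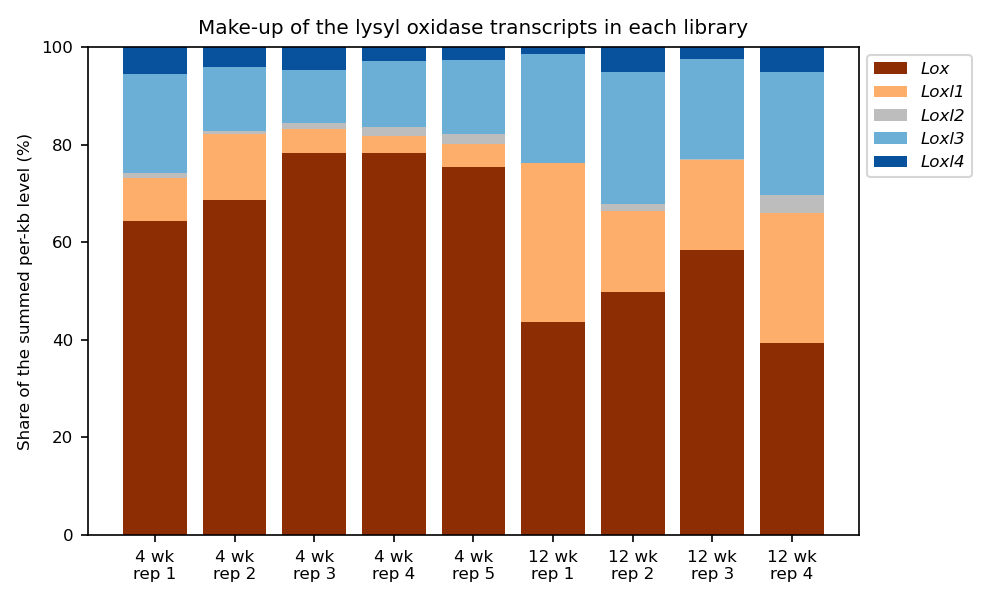
Share of each lysyl oxidase gene in the summed CPM per kb of the 5 genes (percent, vertical axis), 1 stacked bar per library with juvenile libraries on the left and adult libraries on the right. Lox fills 64.4% to 78.3% of the juvenile bars and 39.4% to 58.4% of the adult bars, and Loxl1 and Loxl3 fill more of every adult bar than of any juvenile bar.

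The substrates of these enzymes also differed between the ages. Among 12 genes for fibrillar procollagens and elastin, 11 were tested, 6 were higher in juvenile and 1 was higher in adult OF, against 1.99% and 1.89% of all tested genes. Eln, the elastin gene, was too low to be tested. The chains of type I collagen, the main protein of bone matrix, led the juvenile side, with Col1a1 at 75812 ± 7801 CPM (SD, n = 5) against 29303 ± 4608 CPM (SD, n = 4). Its log2 fold change was 1.37 (SE 0.14, edgeR adjusted p = 0.000426), and that of Col1a2 was 1.25 (SE 0.15, adjusted p = 0.00109). Of the chains of collagens V and XI, which regulate fibril diameter, 4 of 5 were higher in juvenile mice, with log2 fold changes of 1.34 for Col5a1, 0.91 for Col5a2, 0.83 for Col11a1 and 0.80 for Col11a2, and Col5a3 did not pass the test (0.87, SE 1.04, adjusted p = 0.760). Col3a1 (-0.41), Col24a1 (0.52) and Col27a1 (-0.14) did not pass it either. Col2a1, the collagen of cartilage, was the substrate called in the adult direction, at 132 to 307 CPM in juvenile and 528 to 3117 CPM in adult libraries (log2 fold change -2.62, SE 0.48, adjusted p = 0.0118). Adult library 2 was highest in both Col2a1 and the chondrocyte marker sum. Adult library 3 had 581 CPM of Col2a1 with a marker sum of 0 CPM, and the part of cartilage cells in the Col2a1 levels was not tested. Without juvenile libraries 4 and 5, Col1a1, Col1a2 and Col5a1 were still called, and Col5a2, Col11a1, Col11a2 and Col2a1 were not (adjusted p of 0.103, 0.243, 0.151 and 0.140). That fit called 0.526% of all tested genes.

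Of 18 further genes of the pathway, 14 were tested, 2 were higher in juvenile and 2 were higher in adult OF, against 1.99% and 1.89% of all tested genes. Fkbp10, a collagen chaperone that supports lysine hydroxylation by lysyl hydroxylase 2, was at 893 ± 106.6 CPM (SD, n = 5) in juvenile and 474 ± 47.1 CPM (SD, n = 4) in adult mice (log2 fold change 0.91, SE 0.15, edgeR adjusted p = 0.00626). The lysyl hydroxylase genes themselves did not pass the test, with log2 fold changes of 0.77 for Plod1, 0.66 for Plod2 and 0.09 for Plod3. Efemp2, which encodes fibulin-4 and helps to bring lysyl oxidase to its substrate, had a log2 fold change of 0.81 (SE 0.19, adjusted p = 0.0371). Postn, a matricellular protein that binds BMP1 and promotes cleavage of the LOX propeptide, went the other way, at 9.33 to 44.3 CPM in juvenile and 49.4 to 329 CPM in adult libraries (log2 fold change -2.87, SE 0.55, adjusted p = 0.0136). Atox1, the copper chaperone that hands copper to the export pumps supplying secreted enzymes, was 1.65-fold higher in adult mice (log2 fold change -0.72, SE 0.14, adjusted p = 0.0160), and the pump gene Atp7a and the copper importer gene Slc31a1 did not pass the test (0.18 and 0.81). Without juvenile libraries 4 and 5 none of these 4 calls held, with adjusted p of 0.0737 for Fkbp10, 0.181 for Efemp2, 0.116 for Postn and 0.139 for Atox1 at log2 fold changes of 0.83, 0.81, -2.81 and -0.64. Calls in that fit fell to 0.526% of all tested genes. Over the 25 tested related genes the median log2 fold change was 0.66.

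**Figure D4:**
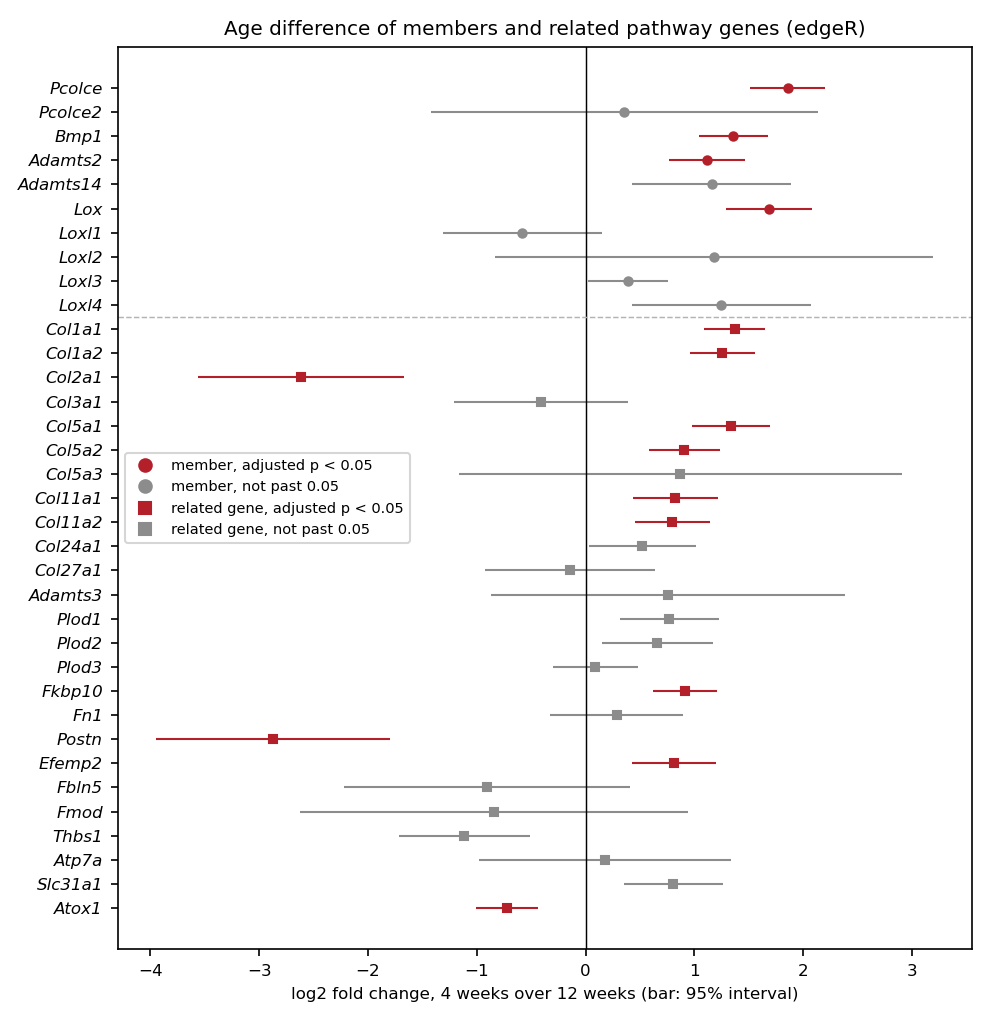
Log2 fold change, 4 weeks over 12 weeks, from edgeR (horizontal axis) for the 10 genes (circles) and 25 tested related genes (squares), with bars of ± 1.96 SE (95% interval by the normal approximation). Red marks an adjusted p under 0.05; among the circles only Pcolce, Bmp1, Adamts2 and Lox are red, all right of 0, and the red squares left of 0 are Col2a1, Postn and Atox1.

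Because collagen I mRNA differed with age as well, the genes were also expressed per 1000 counts of Col1a1 and Col1a2 combined, a scale added after the data had been seen. Pcolce stood at 9.02, 10.3, 10.7, 9.10 and 7.94 in the juvenile libraries and at 7.77, 5.86, 6.10 and 5.76 in the adult libraries. The ages did not overlap, although the closest values were 7.94 and 7.77. Bmp1 was at 8.86, 8.52, 9.68, 10.7 and 10.0 against 8.99, 8.78, 7.71 and 12.5, so the means of 9.55 ± 0.87 (SD, n = 5) and 9.50 ± 2.09 (SD, n = 4) differed by far less than the spread. Adamts2 (2.66 to 3.08 against 2.71 to 4.04) and Lox (4.93 to 7.05 against 3.43 to 5.91) overlapped too. Loxl1 was lower per collagen I count in every juvenile library, at 0.169 to 0.806 against 0.887 to 2.07, and so was Loxl3, at 0.894 to 1.49 against 1.69 to 2.74.

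**Figure D5:**
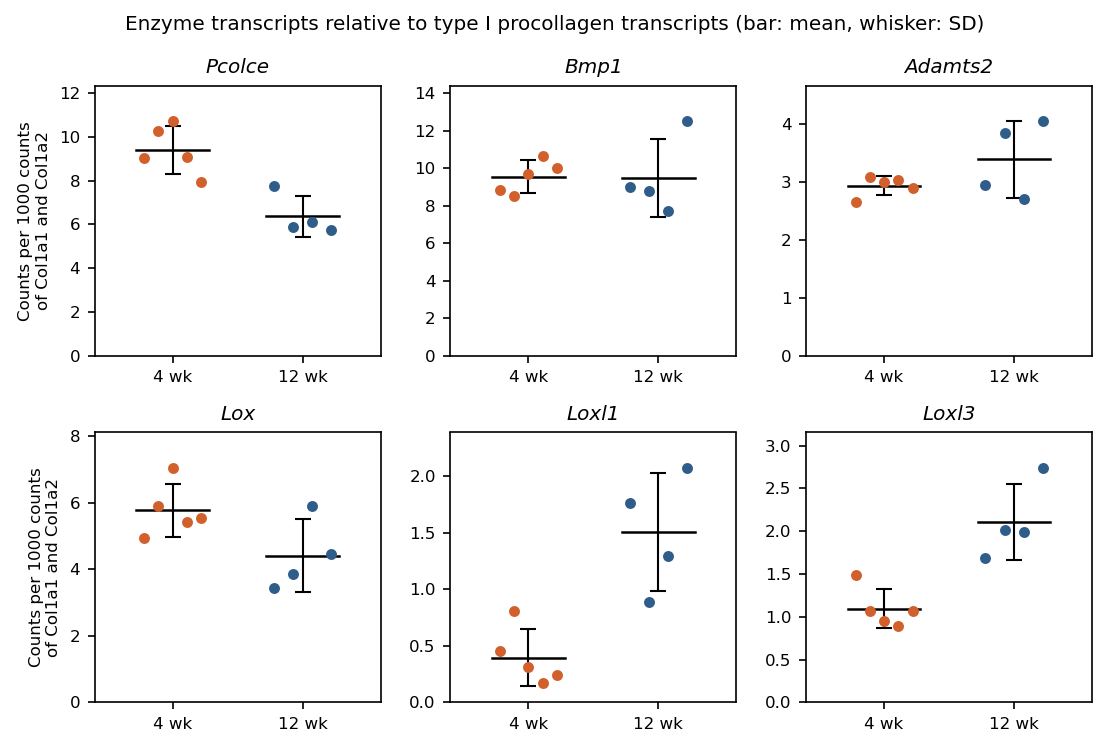
Counts of 6 genes (Pcolce, Bmp1, Adamts2, Lox, Loxl1 and Loxl3) per 1000 counts of Col1a1 and Col1a2 combined (vertical axis from 0), 1 point per library, with the mean and ± 1 SD for each age. Pcolce keeps the juvenile points above the adult points, Loxl1 and Loxl3 have the adult points above, and Bmp1, Adamts2 and Lox overlap.

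An edgeR fit with libraries scaled to the same summed Col1a1 and Col1a2 counts gave the matching tests. This scaling moved the median log2 fold change of all tested genes to -1.34, with 56.8% of genes called, 0.551% toward juvenile and 56.2% toward adult mice. On it Pcolce was still higher in juvenile mice (log2 fold change 0.56, SE 0.17, adjusted p = 0.0137), and Bmp1 (0.01, SE 0.18), Adamts2 (-0.21, SE 0.18) and Lox (0.39, SE 0.20, adjusted p = 0.107) did not pass the test. Loxl1 (-1.92, SE 0.42, adjusted p = 0.00202) and Loxl3 (-0.94, SE 0.22, adjusted p = 0.00327) were called higher in adult mice, as were most genes on this scale. Relative to the shifted median the differences were 1.90 for Pcolce, 1.72 for Lox, 1.35 for Bmp1 and 1.13 for Adamts2. Taking off the median undoes the collagen I scaling. These values therefore nearly repeat the TMM-scaled fit (1.86, 1.69, 1.36 and 1.12) and are no separate result on the collagen I scale.

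Osteoblasts are a main source of collagen I, and the mean log2 CPM of their 8 markers, each weighted equally, served as a further reference. With libraries scaled to that mean, which moved the median of all genes to -0.81, Pcolce (log2 fold change 1.07, SE 0.16, edgeR adjusted p = 0.000805), Lox (0.90, SE 0.17, adjusted p = 0.00256) and Bmp1 (0.55, SE 0.16, adjusted p = 0.0221) were still higher in juvenile mice. This scaling called 28.9% of all genes, 0.812% toward juvenile and 28.1% toward adult mice. Adamts2 did not pass the test (0.32, SE 0.17, adjusted p = 0.173), and Loxl1 was called higher in adult mice (-1.38, SE 0.39, adjusted p = 0.0202). With the mean log2 CPM of these markers as a covariate beside age, edgeR called 0 of the 10 genes and 0 of all 13418, with 0 and 602 at an unadjusted p under 0.05, and the standard error of the Pcolce fold change grew from 0.18 to 0.68. The summed level of the markers, a different measure from the mean used as covariate, did not overlap between the ages. With so large a standard error, age and osteoblast level cannot be told apart in that model.

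The genes most like Pcolce across the 9 libraries, by Pearson r of log2 CPM, were Rcn3 (0.99), Gm26841 (0.99) and Rnaset2a (0.98). Within ages, after each gene was centred on its age mean, r was 0.90, 0.90 and 0.85. Rcn3 encodes a calcium-binding protein of the endoplasmic reticulum. For Lox they were Gars (0.98), the glycyl-tRNA synthetase gene, Col1a2 (0.98) and Tnfrsf11b (0.98), which encodes osteoprotegerin, with 0.87, 0.75 and 0.77 within ages. Tnfrsf11b had 0, 3, 12 and 0 counts in adult libraries 1 to 4, against a floor of 3 counts. Its r values therefore rest on very few adult reads. The 9 points share the age split and the library scaling, and the genes were picked from all tested genes for their r.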

How the data were processed

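RNA from laser-microdissected capillaries and surrounding cells was sequenced as 75 bp paired-end SMART-Seq v4 and Nextera XT libraries. The authors mapped the reads to mm10 (GRCm38) with TopHat2 and Bowtie2, and their processing notes name featureCounts. The deposited values are unnormalized counts per Ensembl gene. Strand setting and annotation release are not given in the sources used here. Besides Loxl3, exons of Fkbp10, Efemp2 and Plod3 lie partly under exons of protein-coding genes on the opposite strand, over 6.58%, 4.57% and 11.7% of their bases. Symbols, positions and exon lengths came from GENCODE M21, which holds 37693 of the 39179 identifiers. Replicates are separate libraries. Floors rest on 3 counts and cover counting error only, while intervals come from the edgeR fit, whose dispersion includes variation between libraries.

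Ages were compared in all 9 libraries with edgeR 4.0.16 (filterByExpr, TMM, quasi-likelihood F test, R 4.3.3), adjusted over all tested genes by the Benjamini-Hochberg method. Intervals are the estimate ± 1.96 SE, a normal approximation that is narrower than the F test implies with so few libraries. Fits were tested on simulated data. Alternatives were DESeq2 1.42.0, limma 3.58.1 voom, other scalings and filters, a replicate block, and libraries left out; scaling by collagen I was added after the data had been seen. Named genes were the members, 30 related genes of the pathway listed by role, markers of 13 cell types, and the 3 genes most like Pcolce and Lox. Members and lists were chosen with earlier results of these data known.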

Additional observations from a re-analysis of the deposited data

Results flagged for a closer look

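In 5 of 48 groups of libraries checked, 1 library lay apart from the rest by the ratio of its gap to the range of the group (Dixon's criterion), where chance alone gives about 2.4. Pcolce2 in adult mice was set by adult library 2, at 122.7 CPM against 1.002 to 16.6 CPM in the other 3, and the same library held the chondrocyte marker sum that lay apart, 513.9 CPM against 0 to 83.8 CPM. Lox in juvenile mice had 1 low library, juvenile library 1, at 734.7 CPM against 916 to 979 CPM. The fibroblast marker sum was 14.4 CPM in juvenile library 2 and 0 to 3.39 CPM in the other juvenile libraries. The megakaryocyte marker sum was 4211 CPM in adult library 4 and 62.4 to 605 CPM in the other adult libraries.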

How the results depend on the processing

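With each library left out in turn, Pcolce, Bmp1, Adamts2 and Lox were called in all 9 fits, and the number called was 8 to 13 related genes against 11, and 262 to 651 of all tested genes against 520 in the reported fit. The fits without juvenile library 2 (332), 3 (293), 4 (275) or 5 (262) differed from the reported fit by more than 1.5 times. The Pcolce2 log2 fold change ranged from -0.062 (without adult library 4) to 2.65, with -0.033 without adult library 3. DESeq2 called 6 of 9 genes (Pcolce2 had no p there) and 1490 of all. Without juvenile libraries 4 and 5, 3 of the 10 genes, 3 related genes (Col1a1, Col1a2 and Col5a1) and 73 of all were called. With the osteoblast marker level as a covariate 0, 0 and 0 were called, and signs turned for Pcolce2 (-2.18), Adamts14 (-0.40), Lox (-0.13) and Loxl1 (1.28). Scaling by osteoblast markers called 3884 of all genes, 2.81% of them higher in juvenile mice against 51.3% in the reported fit, and turned Pcolce2 (-0.37) and Loxl3 (-0.40). Scaling by collagen I called 7617, 0.972% of them higher in juvenile mice, and turned Pcolce2 (-0.78), Adamts2 (-0.21), Adamts14 (-0.14), Loxl2 (-0.35), Loxl3 (-0.94) and Loxl4 (-0.077). Both scalings lower every fold change by about the shift of the median given in the report; for the other changes the cause was not tested. With the longest transcript as length Pcolce was at 573.5 and 158.1, Bmp1 at 282.3 and 110.1, and Adamts2 at 63.8 and 29.4 CPM per kb in juvenile and adult mice, which changes the order given in the report. Libraries of the 2 ages share replicate numbers only as names: deviations of same-numbered libraries correlated at -0.03 to 0.03, and not every library correlated best with its own number. With the replicate number as a block, 4 of the 10 genes, 3 related genes (Col1a1, Col1a2 and Col5a1) and 89 of all were called. DESeq2's size factors, upper-quartile scaling, voom, no filter, a minimum of 10 counts and leaving out blood, immunoglobulin and mitochondrial genes each called Pcolce, Bmp1, Adamts2 and Lox and no other of the 10. At this depth 3 counts are 0.347 to 0.638 CPM, and Loxl2 had 0 to 184 counts per adult library.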

Other observations

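Of the cell types whose markers were not described beside a result, osteoclast markers summed to 8747 to 13696 CPM in juvenile and 13393 to 20138 CPM in adult libraries, with 1 of 6 higher in adult mice. Pericyte and smooth muscle markers (383 to 533 against 368 to 636 CPM) and B cell markers (36.2 to 54.6 against 21.7 to 152 CPM) had none past the test. Adipogenic stroma markers summed to 281 to 391 against 381 to 1049 CPM, with 1 gene higher at each age. Macrophage markers summed to 300.3 to 392 against 641 to 1115 CPM, with 1 of 6 higher in adult mice, and megakaryocyte markers to 13.0 to 26.3 against 62.4 to 4211 CPM, with 1 of 5 higher in adult mice. Erythroid markers summed to 343 to 2434 against 4160 to 34004 CPM, and neutrophil markers to 5.80 to 64.0 against 91.2 to 4301 CPM. Chondrocyte markers summed to 8.45 to 83.4 against 0 to 514 CPM with none past the test. Fibroblast markers were near absent, at 0 to 14.4 against 0.247 to 6.68 CPM with 2 of 5 at 0 in all libraries, and skeletal muscle markers reached at most 13.6 CPM.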
